A study of Mus musculus with 22 samples.

Results

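The transcript levels of 35 genes of fatty acid uptake, activation, transport and oxidation were followed in left ventricular tissue of FVB mice under pressure overload. The genes are a list of named pathway members, taken by symbol, out of 30735 Ensembl genes in the deposited tables. Each of the 35 was found once in both tables and passed the filter on low values in both, and none was listed at 0 in any library. The VCP TG mice carried a VCP transgene and the WT mice were wild type; which promoter drives the transgene, and in how many lines, was not given in the labels. Pressure load came from transverse aortic constriction (TAC), in which a suture narrows the aorta, and a sham operation served as control. There were 3 VCP TG and 4 WT hearts at 2 weeks after TAC, 4 VCP TG and 4 WT sham hearts in the same table, and 3 VCP TG and 4 WT hearts at 5 weeks after TAC, from mice aged 3 to 5 months. A sham group for 5 weeks was not analysed here, and the 2 tables, one per time point, were not compared with each other by any test. The labels do not say that replicates are separate animals, and every p-value here therefore reflects library-to-library spread only.

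The heart draws most of its ATP from long-chain fatty acids. Lipoprotein lipase frees them at the capillary wall, CD36 and the transport protein FATP1 take them up, a binding protein carries them through the cytosol, and an acyl-CoA synthetase activates them. The carnitine shuttle moves the acyl group into the mitochondrion, where the beta-oxidation spiral removes acetyl units and hands electrons to the respiratory chain through the electron transfer flavoprotein. Malonyl-CoA, made by acetyl-CoA carboxylase and removed by malonyl-CoA decarboxylase, restrains the entry step. A loaded, hypertrophied heart is known for lower transcript levels of this programme, which is driven by PPAR and estrogen-related nuclear receptors with the coactivator PGC-1. VCP (valosin-containing protein) uses ATP to pull ubiquitin-tagged proteins out of membranes and assemblies for degradation.

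Values are TPM, in which each gene's length-scaled share of transcripts is set to a fixed library total; changes are differences of log2(TPM + 1) with their standard error (SE), which understate the change of low genes. Read depth is unknown, and between 11629 and 16813 genes reached 1 TPM. Some libraries stood apart. The 13 mitochondrially encoded protein-coding genes took 27.9% to 72.9% of TPM, with the highest share in VCP TG sham replicate 4. Vcp, the check of the genotype label, stood at 125 to 151 TPM in VCP TG and 47.7 to 119 TPM in WT hearts at 2 weeks TAC, at 73.5 to 186 TPM in VCP TG and 45.7 to 82.6 TPM in WT sham hearts, and at 39.1 to 118 TPM in VCP TG and 47.7 to 123 TPM in WT hearts at 5 weeks TAC. On values rescaled to nuclear protein-coding genes, 5 libraries lay with the other genotype: those labelled VCP TG sham replicate 1, WT 2 weeks TAC replicate 1, VCP TG 5 weeks TAC replicate 3 and WT 5 weeks TAC replicates 2 and 3. Genotype directions follow the labels throughout. The atrial light chain gene Myl7 was at 100 TPM or more in 6 libraries, namely VCP TG 2 weeks TAC replicates 1 and 2, WT 2 weeks TAC replicate 1, VCP TG sham replicates 3 and 4, and WT 5 weeks TAC replicate 3. In the VCP TG hearts at 2 weeks TAC, transcripts weighted by TPM had a mean GC content of 44.0% to 46.9% and a mean length of 2209 to 2717 bases, against 48.6% to 49.5% and 2859 to 3028 bases in WT 2 weeks TAC hearts, and 49.5% to 50.1% and 3330 to 3493 bases in WT sham hearts. Changes that moved by more than 1.5 times without the atrial-rich libraries, or without those with Vcp against the label, are given again without them beside each comparison.

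The members together took 1.03% to 2.48% of the TPM of nuclear protein-coding genes in a library. Fabp3, the heart fatty acid binding protein, was the highest member at 913 to 3454 TPM. The lowest were Ucp3, a mitochondrial uncoupling protein of muscle, at 1.40 to 18.7 TPM, and the hormone-sensitive lipase Lipe at 1.73 to 18.0 TPM: by group mean Ucp3 was the lowest in 3 of the 6 groups and Lipe in the other 3. TPM is scaled by transcript length, so levels can be set side by side between genes. Among the uptake and activation genes, Lpl, the lipoprotein lipase, stood at 386 to 1027 TPM, the fatty acid translocase Cd36 at 119 to 319.7 TPM and the long-chain acyl-CoA synthetase Acsl1 at 69.9 to 212 TPM. The second transporter, Slc27a1, which encodes FATP1, lay far below Cd36, at 5.25 to 30.1 TPM.

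In the carnitine shuttle, the muscle palmitoyltransferase Cpt1b stood at 40.8 to 169 TPM, Cpt2 of the inner membrane at 39.1 to 108 TPM and the carnitine-acylcarnitine carrier Slc25a20 at 15.6 to 48.0 TPM. The liver-type Cpt1a was lower, at 3.34 to 14.6 TPM. Both genes of malonyl-CoA turnover were among the low members: Acacb, the mitochondrial acetyl-CoA carboxylase, lay at 12.4 to 57.9 TPM and Mlycd, the malonyl-CoA decarboxylase, at 3.88 to 27.6 TPM.

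Of the acyl-CoA dehydrogenases, which open each turn of the spiral, the long-chain Acadl stood highest at 189.9 to 557 TPM, followed by the medium-chain Acadm at 125 to 374 and the very-long-chain Acadvl at 60.9 to 234 TPM, whose ranges overlap. The short-chain Acads was the low one, at 10.4 to 32.5 TPM, below every Acadvl value. The trifunctional protein subunits Hadha and Hadhb lay at 141 to 364 and 127 to 394 TPM, the short-chain hydroxyacyl dehydrogenase Hadh at 36.1 to 122 TPM, the enoyl hydratase Echs1 at 45.5 to 155 TPM and the thiolase Acaa2 at 81.2 to 348 TPM. Among the auxiliary enzymes for unsaturated chains, the isomerases Eci1 and Eci2 lay at 54.3 to 211 and 37.1 to 93.0 TPM and the dienoyl reductase Decr1 at 21.0 to 57.3 TPM. The electron transfer flavoprotein genes Etfa, Etfb and its dehydrogenase Etfdh lay at 84.4 to 238, 143 to 559 and 78.5 to 205 TPM.

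Of the 2 thioesterases, Acot13 stood at 165 to 473 TPM and the mitochondrial Acot2 at 15.3 to 46.8 TPM. Ucp2, the widely expressed uncoupling protein, ranged over 4.83 to 132 TPM and Pdk4, the kinase that shuts pyruvate dehydrogenase and so spares glucose, over 41.7 to 438 TPM. These were the most variable members within groups, with a pooled within-group SD of 0.935 (Ucp2) and 0.908 (Pdk4) on the log2 scale. The steadiest was Eci2, at 0.296. For triglyceride storage and breakdown, the adipose triglyceride lipase Pnpla2 lay at 90.6 to 299 TPM, the acyltransferase Dgat2 at 14.1 to 77.8 TPM and the lipid droplet coat gene Plin5 at 5.54 to 33.4 TPM.

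**Figure D1:**
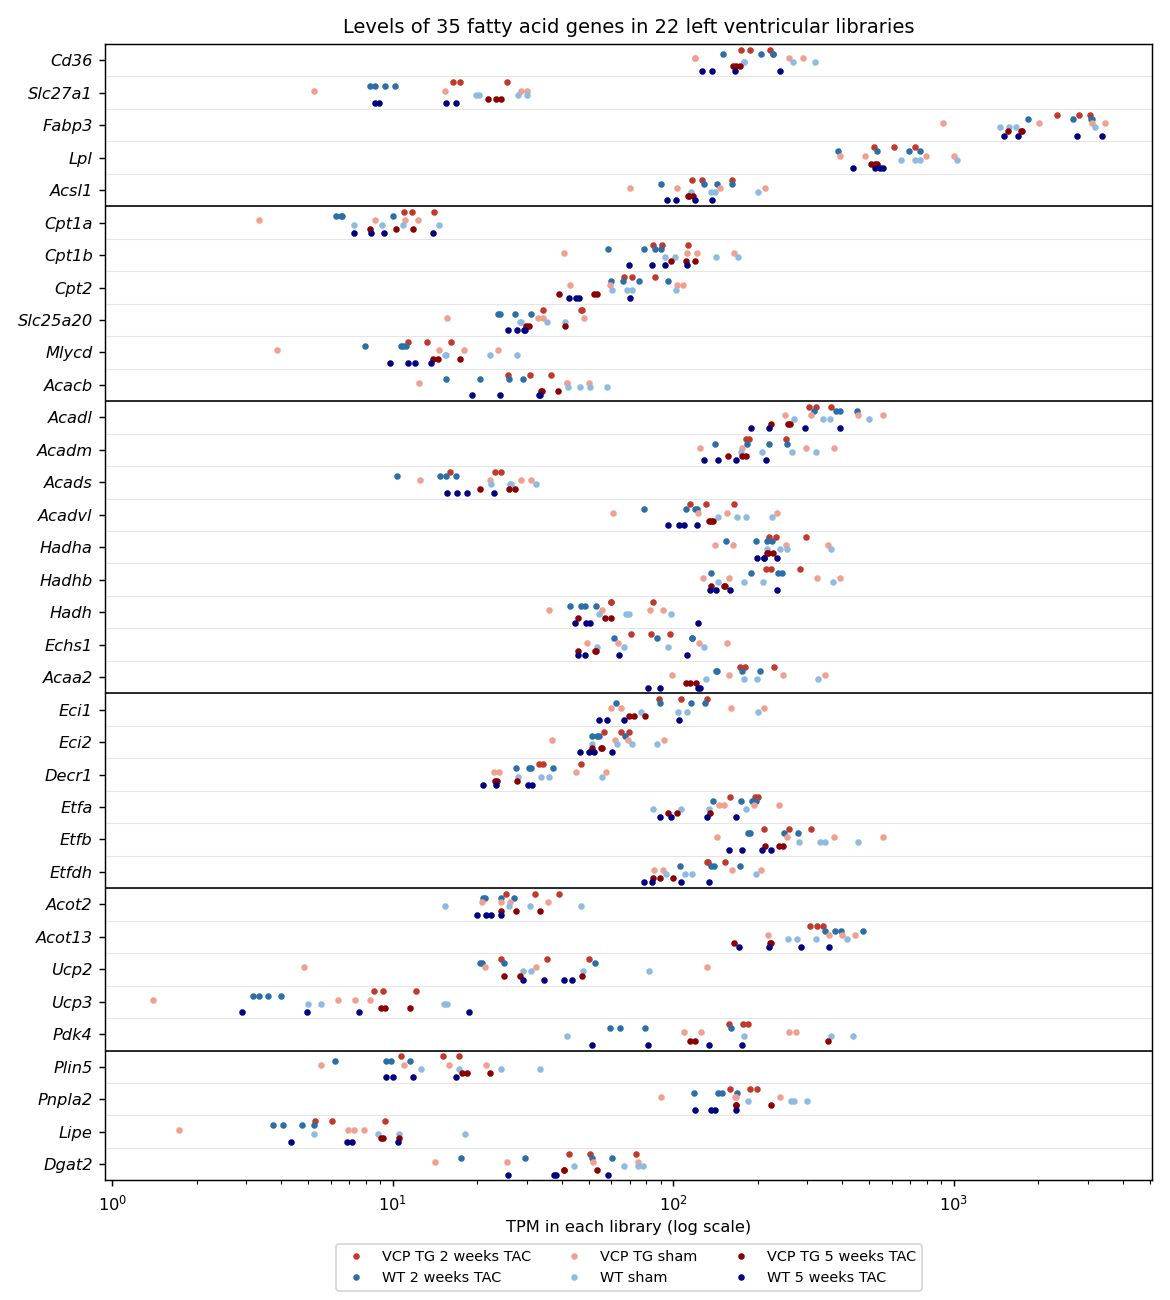
Each point is the TPM (log axis) of 1 library for 1 of the 35 members, ordered by role, with the 6 groups in colour. Fabp3 is the highest at 913 to 3454 TPM, while Ucp3 at 1.40 to 18.7 TPM and Lipe at 1.73 to 18.0 TPM are the lowest; single low points in VCP TG sham hearts are replicate 4 for many members.

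The spread between libraries of a group differed. The median SD over the members was 0.24 in VCP TG and 0.28 in WT hearts at 2 weeks TAC, 0.72 in VCP TG and 0.39 in WT sham hearts, and 0.12 in VCP TG and 0.34 in WT hearts at 5 weeks TAC, on the log2 scale. VCP TG sham replicate 4, with the largest mitochondrial share, held the lowest value of its group for members as different as Slc27a1 (5.25 TPM) and Ucp3 (1.40 TPM). Sequence shared with other transcripts makes some levels uncertain: in GENCODE M21, 93.7% of the 31-base words of Cpt1b also occur in the transcript Gm44502, 68.0% of those of Etfb in Gm45233, 64.7% of those of Hadhb in Gm13910, 35.2% of those of Fabp3 in Fabp3-ps1 and 29.8% of those of Acot2 in Acot1. Gm44502 and Gm45233 had no listed level. In the files, Gm13910 reached at most 0.463 TPM, Fabp3-ps1 at most 1.95 TPM and Acot1 0.526 to 7.42 TPM. Ucp2, Acadvl, Fabp3, Echs1, Acacb, Etfdh, Hadha and Lipe overlap a gene on the other strand, and whether the quantification used strand was not given in the labels.

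Isoform pairs with related activity kept one dominant partner in every library (means ± SD, n = 3 for VCP TG TAC groups and 4 for all others). Cpt1b averaged 96.3 ± 14.9 TPM in VCP TG and 78.3 ± 14.2 in WT hearts at 2 weeks TAC, 109.6 ± 51.4 in VCP TG and 126 ± 35.8 in WT sham hearts, and 109 ± 10.9 in VCP TG and 89.5 ± 17.6 in WT hearts at 5 weeks TAC. Cpt1a averaged 12.2 ± 1.62 TPM in VCP TG and 7.34 ± 1.77 in WT hearts at 2 weeks TAC, 8.83 ± 3.97 in VCP TG and 10.5 ± 3.11 in WT sham hearts, and 10.1 ± 1.73 in VCP TG and 9.70 ± 2.92 in WT hearts at 5 weeks TAC. Within single libraries the muscle form exceeded the liver form 4.99-fold to 15.6-fold. Acot13 averaged 325 ± 17.5 TPM in VCP TG and 399 ± 53.9 in WT hearts at 2 weeks TAC, 355 ± 97.6 in VCP TG and 317 ± 70.9 in WT sham hearts, and 203 ± 32.9 in VCP TG and 259 ± 81.8 in WT hearts at 5 weeks TAC. Its partner Acot2 averaged 32.2 ± 6.92 TPM in VCP TG and 23.4 ± 2.91 in WT hearts at 2 weeks TAC, 26.7 ± 6.38 in VCP TG and 29.7 ± 13.1 in WT sham hearts, and 28.4 ± 4.54 in VCP TG and 22.0 ± 1.82 in WT hearts at 5 weeks TAC.

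The enoyl-CoA isomerases were closer to each other: Eci1 averaged 109 ± 21.6 TPM in VCP TG and 99.3 ± 29.6 in WT hearts at 2 weeks TAC, 124 ± 74.0 in VCP TG and 123 ± 53.7 in WT sham hearts, and 73.8 ± 4.96 in VCP TG and 71.0 ± 23.3 in WT hearts at 5 weeks TAC. For Eci2 the means were 63.7 ± 6.47 TPM in VCP TG and 56.4 ± 7.17 in WT hearts at 2 weeks TAC, 65.2 ± 23.0 in VCP TG and 68.3 ± 15.3 in WT sham hearts, and 54.0 ± 2.50 in VCP TG and 52.2 ± 5.86 in WT hearts at 5 weeks TAC. The ratio of Eci1 to Eci2 ran from 1.05 to 2.33 over all 22 libraries, so Eci1 was the higher in each. Among the uncoupling proteins, Ucp2 averaged 36.5 ± 12.8 TPM in VCP TG and 29.7 ± 15.4 in WT hearts at 2 weeks TAC, 47.5 ± 57.2 in VCP TG and 47.4 ± 24.3 in WT sham hearts, and 33.5 ± 12.0 in VCP TG and 37.0 ± 6.41 in WT hearts at 5 weeks TAC. Ucp3 averaged 9.98 ± 1.87 TPM in VCP TG and 3.52 ± 0.361 in WT hearts at 2 weeks TAC, 5.83 ± 3.06 in VCP TG and 10.3 ± 5.85 in WT sham hearts, and 9.99 ± 1.33 in VCP TG and 8.53 ± 7.06 in WT hearts at 5 weeks TAC. Ucp2 exceeded Ucp3 in all 22 libraries, 1.92-fold to 15.9-fold.

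Hadha (ENSMUSG00000025745, chromosome 5, 30118304 to 30155162, minus strand, GRCm38) and Hadhb (ENSMUSG00000059447, chromosome 5, 30155248 to 30184593, plus strand) encode the 2 subunits of one enzyme and lie head to head, with 85 bases between their annotated ends in GENCODE M21. That stretch, read from RefSeq's GRCm38.p6 promoter table at chr5:30155163-30155247 (plus strand, in the direction of Hadhb), is shown because it lies between the 2 genes. Their listed start sites, 30154980 for Hadha and 30155253 for Hadhb, have 272 bases between them, so the stretch covers only a part of that space. It holds no AGGTCA on either strand, hence no capitals.
Hadha-Hadhb intergenic: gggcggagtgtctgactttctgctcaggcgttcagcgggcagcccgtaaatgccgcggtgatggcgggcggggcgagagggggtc
Its GC content is 69.4%. The ratio of Hadha to Hadhb was 0.978 to 1.09 in VCP TG and 0.919 to 1.13 in WT hearts at 2 weeks TAC, 0.779 to 1.28 in VCP TG and 0.982 to 1.49 in WT sham hearts, and 1.42 to 1.57 in VCP TG and 0.901 to 1.64 in WT hearts at 5 weeks TAC. The 2 mRNAs thus stayed within 1.64-fold of each other in every library.

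The first comparison asked how pressure overload moved these genes in WT hearts. Most members were lower 2 weeks after TAC than after sham surgery: the log2 fold change was below 0 for 29 of 35, against 64.2% of all 15540 genes tested, and the median was -0.42 over the members and -0.13 over all genes. In the fit of the whole table, 0 of 35 members passed an adjusted p of 0.05 (limma with Benjamini-Hochberg adjustment; background 0% of genes), and 9 had an unadjusted p under 0.05, all of them lower, against 8.47% of all genes lower at that level. With the 8 WT libraries fitted alone, 6 members fell, where 7.03% of 13709 genes were called, 6.31% lower. Among all genes called there 99 were higher and 865 lower, but 324 were higher and 311 lower after quantile normalization, when 4 members were called (Slc27a1, Acacb, Acadvl and Etfb). Those 6 were the transporter Slc27a1, the carboxylase Acacb, the decarboxylase Mlycd, the dehydrogenase Acads, the lipid droplet gene Plin5 and the lipase Pnpla2. In these bulk samples fewer cardiomyocytes and less RNA per cardiomyocyte cannot be told apart. The number of members called rested on single libraries, as did the share of all genes called. The count of members was 1 without WT 2 weeks TAC replicate 3 (0.363% of all genes) or WT sham replicate 3 (0.522%). Without WT 2 weeks TAC replicate 1 or 2 it was 2 (3.14% and 1.31%). It was 3 without WT 2 weeks TAC replicate 4 (1.66%) and 10 without WT sham replicate 4 (15.9%). Over the 17 alternatives of the WT fit, the call held in 16 for Slc27a1, 13 for Acacb, 8 for Acads, 7 for Mlycd, 6 for Plin5 and 5 for Pnpla2. WT 2 weeks TAC replicate 1 is both the atrial-rich library and the one with Vcp against its label here. Leaving it out under each of these names is the same fit, so the 17 are not all distinct. In the fit of the table without the atrial-rich libraries, the log2 fold changes were -1.28 for Slc27a1, -0.95 for Acacb and -0.73 for Acads. The members' median was -0.27, against -0.19 over all genes. That fit keeps only replicate 3 of VCP TG 2 weeks TAC, so no count of calls is given.

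Slc27a1 (ENSMUSG00000031808, chromosome 8, 71568882 to 71587302, plus strand) had 8.27, 10.1, 8.67 and 9.34 TPM in the WT TAC hearts, against 20.3, 30.1, 27.9 and 19.8 TPM in the WT sham hearts. Every TAC heart lay below every sham heart. The log2 fold change was -1.32 ± 0.17 (SE) with adjusted p = 0.0120 in limma over the WT libraries alone, and adjusted p = 0.323 in the limma fit of the table. Its call was lost with the adjustment for transcript length and GC content. Without the library labelled WT 2 weeks TAC replicate 1, which was rich in atrial transcripts and had Vcp against its label, the change was -1.28 (limma adjusted p = 0.0196). The other membrane transporter, Cd36, was at 149.9, 226, 227 and 206 TPM in WT TAC and 179, 319.7, 267 and 178 TPM in WT sham hearts, overlapping groups.

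Both enzymes of malonyl-CoA turnover were lower in WT TAC hearts. They were called with the WT libraries fitted alone but not in the fit of the whole table. In that fit the smallest limma adjusted p of the 6 shuttle and malonyl-CoA genes was 0.327. Both calls were lost with the adjustment for transcript length and GC content (limma adjusted p = 0.178 for Acacb and 0.209 for Mlycd). Acacb (ENSMUSG00000042010, chromosome 5, 114146535 to 114250761, plus strand), which makes malonyl-CoA at the outer membrane, had 15.5, 26.0, 20.4 and 29.0 TPM in WT TAC hearts, against 46.4, 57.9, 50.3 and 42.2 TPM in WT sham hearts. Mlycd (ENSMUSG00000074064, chromosome 8, 119394878 to 119411102, plus strand), which degrades it, had 7.98, 11.1, 10.7 and 10.9 TPM in WT TAC hearts, against 15.3, 27.6, 22.2 and 15.5 TPM in WT sham hearts. Neither gene's groups overlapped. Over the WT libraries alone, limma gave log2 fold changes of -1.11 ± 0.20 for Acacb (adjusted p = 0.0183) and -0.89 ± 0.21 for Mlycd (adjusted p = 0.0329). Acacb kept its call without the library labelled WT 2 weeks TAC replicate 1 (-0.95, limma adjusted p = 0.0346), and Mlycd did not (-0.79, limma adjusted p = 0.0679). The other shuttle genes had lower means without a call: Cpt1b was at 58.4, 90.5, 78.8 and 85.7 TPM in WT TAC and 93.1, 169, 142 and 101 TPM in WT sham hearts, which did not overlap, while Cpt2, at 59.7 to 95.9 TPM in WT TAC and 60.5 to 102 TPM in WT sham hearts, did.

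In the beta-oxidation spiral the short-chain enzyme was lower, with a call in the WT libraries fitted alone but not in the fit of the whole table. In that fit the smallest limma adjusted p of the 9 spiral genes was 0.327. The call was lost with the adjustment for transcript length and GC content (limma adjusted p = 0.157). Acads (ENSMUSG00000029545, chromosome 5, 115110299 to 115119346, minus strand) had 10.4, 15.5, 14.7 and 16.8 TPM in WT TAC hearts, against 26.1, 32.5, 26.4 and 22.3 TPM in WT sham hearts, again without overlap. Its log2 fold change was -0.86 ± 0.18 (limma over WT libraries alone, adjusted p = 0.0270; -0.73 and adjusted p = 0.0511 without WT 2 weeks TAC replicate 1). Acadvl, at 78.8 to 122 TPM in WT TAC and 144 to 224 TPM in WT sham hearts, did not overlap either and did not pass the test. The same held for Hadh, at 42.7 to 53.0 TPM in WT TAC and 54.3 to 98.0 TPM in WT sham hearts. The medium- and long-chain dehydrogenases overlapped: Acadl was at 317 to 451 TPM in WT TAC and 268 to 497 TPM in WT sham hearts, and Acadm at 141 to 255 TPM in WT TAC and 175 to 323 TPM in WT sham hearts. Of the 9 spiral genes, 7 had a log2 fold change below 0, with a median of -0.27.

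All 4 genes of triglyceride storage and lipolysis had a log2 fold change below 0, with a median of -0.91. Plin5 (ENSMUSG00000011305, chromosome 17, 56111601 to 56117596, minus strand), which tethers droplets to mitochondria, had 6.22, 11.5, 9.49 and 9.84 TPM in WT TAC hearts, against 12.6, 24.3, 33.4 and 17.3 TPM in WT sham hearts. Pnpla2 (ENSMUSG00000025509, chromosome 7, 141455198 to 141460743, plus strand), which cleaves the first fatty acid from triglyceride, had 144, 168, 119 and 149.5 TPM in WT TAC hearts, against 185, 263, 299 and 269 TPM in WT sham hearts. Both were lower in every TAC heart, and over the WT libraries alone limma gave -1.10 ± 0.28 (adjusted p = 0.0415) and -0.79 ± 0.20 (adjusted p = 0.0404). Neither call held without WT 2 weeks TAC replicate 1 (limma adjusted p = 0.0795 and 0.0668). Both were also lost with the adjustment for transcript length and GC content (limma adjusted p = 0.2085 and 0.287). In the fit of the whole table the smallest limma adjusted p of the 4 triglyceride genes was 0.327. Lipe, at 3.74, 4.73, 4.07 and 5.25 TPM in WT TAC and 5.23, 8.87, 18.0 and 10.5 TPM in WT sham hearts, missed the threshold by little (log2 fold change -0.99 ± 0.28, limma adjusted p = 0.0579) and its groups overlapped by 1 library. The white adipocyte list of 8 markers summed to 1.85 to 12.6 TPM in WT TAC and 2.87 to 7.12 TPM in WT sham hearts; Adipoq, Plin1, Cfd and Lep were at 0 in WT 2 weeks TAC replicate 2, Plin1 in replicate 3 and Lep in WT sham replicate 2.

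**Figure D2:**
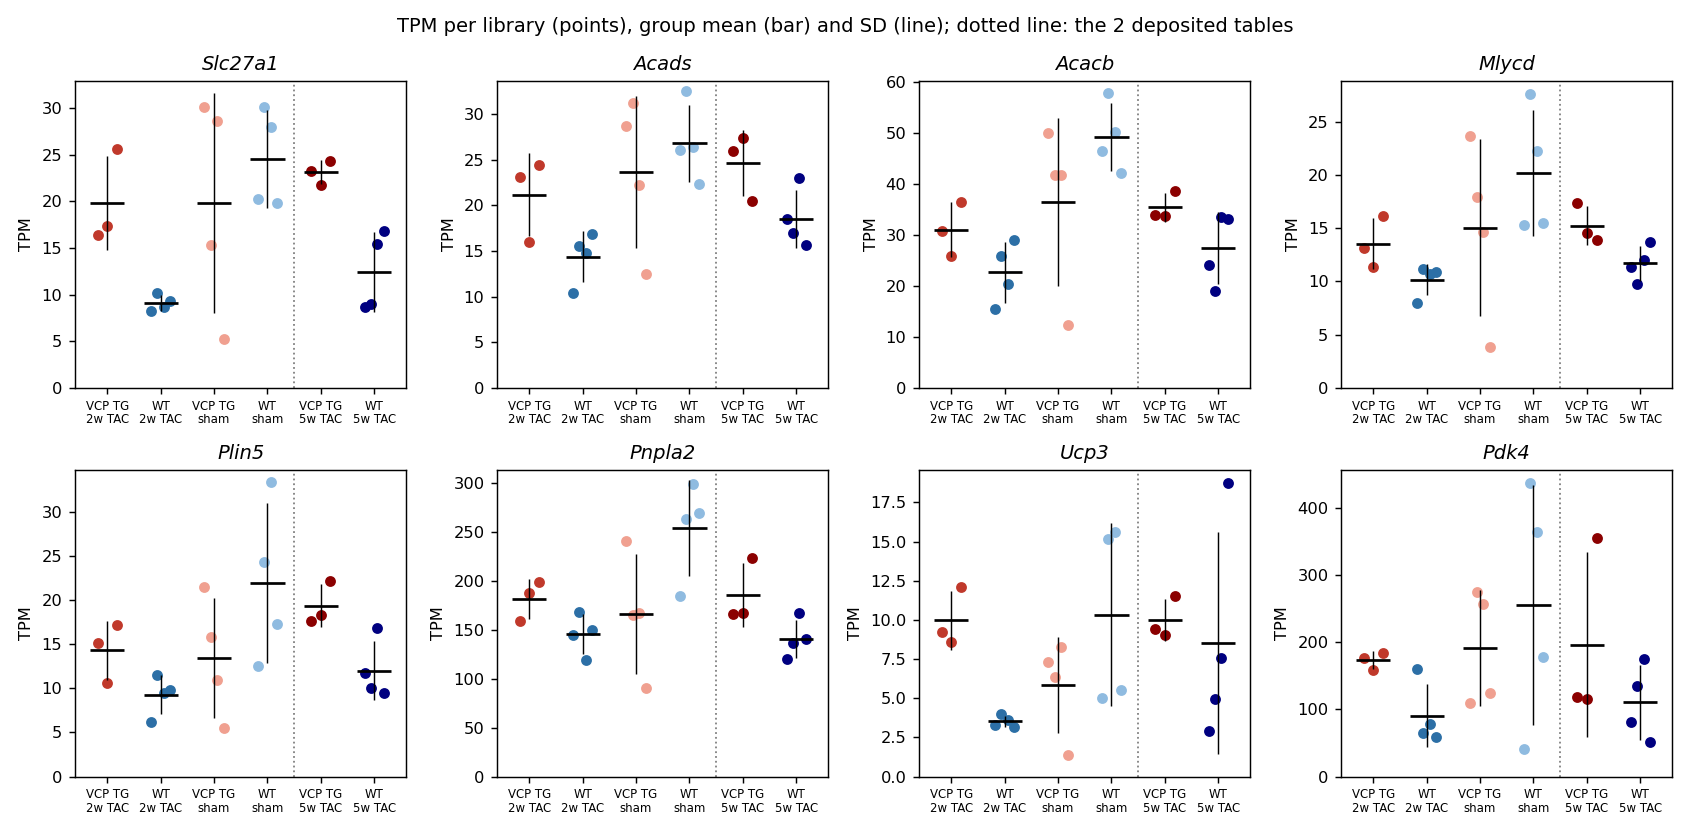
TPM of 8 members in each library (points), with group means (bars) and SD (lines), n = 3 for VCP TG TAC groups and 4 for the others. In the 2-week table the WT TAC points of Slc27a1, Acads, Acacb, Mlycd, Plin5, Pnpla2 and Ucp3 lie below all WT sham points, while Pdk4 overlaps.

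Ucp3 (ENSMUSG00000032942, chromosome 7, 100472990 to 100486432, plus strand) had 3.32, 4.00, 3.59 and 3.18 TPM in WT TAC hearts, against 5.00, 15.2, 15.6 and 5.54 TPM in WT sham hearts, with no overlap. Its log2 fold change of -1.17 ± 0.33 just missed the threshold in the WT libraries alone (limma adjusted p = 0.0573), and the sham hearts comprised a lower and a higher pair. Pdk4 was spread more widely, at 160.5, 64.3, 79.0 and 59.2 TPM in WT TAC and 41.7, 438, 365 and 179 TPM in WT sham hearts. A few members had higher means after TAC without passing any test: Etfa was at 139, 197, 174 and 190.3 TPM in WT TAC and 134, 182, 106 and 84.4 TPM in WT sham hearts, Fabp3 at 1843 to 3114 TPM in WT TAC and 1455 to 3182 TPM in WT sham hearts, and Acot13 at 347 to 473 TPM in WT TAC and 256 to 415 TPM in WT sham hearts. In all, the groups did not overlap for 11 of 35 members, each lower in TAC, where 13.7% of all genes tested were lower without overlap. On values rescaled to nuclear protein-coding genes 11 members were again lower without overlap (17.6% of genes), with Hadha in place of Cpt1b.

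Several measures moved with this comparison. The 6 members called in the WT libraries alone had a transcript GC content of 56.7% to 61.0% (median 59.0%). That of the other 29 was 38.4% to 57.1% (median 51.3%). Across the 35 members the log2 fold change correlated with GC content by r = -0.54 and with log2 transcript length by r = -0.49, and across 13577 genes by r = -0.40 and -0.22; genes share libraries, so these are descriptions. Over the members, r with GC content was -0.54 between VCP TG and WT sham hearts (-0.26 over all genes). For TAC against sham in VCP TG hearts it was 0.17 (-0.26 over all genes). Between VCP TG and WT hearts it was 0.37 at 2 weeks TAC (-0.08 over all genes) and 0.47 at 5 weeks (0.11). For the difference of the TAC responses it was 0.51 (0.14 over all genes). With log2(TPM + 1) adjusted within each library for length and GC content, 0 of 35 members passed in the WT libraries, where 0.00796% of 12569 genes did. The adjusted changes were -0.85 for Slc27a1, -0.58 for Acacb, -0.51 for Acads, -0.48 for Mlycd, -0.75 for Plin5 and -0.40 for Pnpla2. The summed level of 8 endothelial markers was 384 to 458 TPM in WT TAC and 541 to 793 TPM in WT sham hearts, and that of 8 ventricular myocyte markers 16127 to 21765 TPM in WT TAC and 20768 to 28794 TPM in WT sham hearts. The 4 brown adipocyte markers summed to 2726 to 4104 TPM in WT TAC and 1394 to 2201 TPM in WT sham hearts; of these, Cox7a1, which cardiac muscle also expresses, was at 2717 to 4094 TPM in WT TAC and 1381 to 2188 TPM in WT sham hearts, and Ucp1, the defining one, at 0 to 0.245 TPM in WT TAC and 0 in all WT sham hearts. The mean level of 1344 receptor genes (olfactory and vomeronasal) was 0.107 to 0.200 TPM in WT TAC and 0.0450 to 0.0729 TPM in WT sham hearts, and gene IDs not found in GENCODE M21 took 4.21% to 8.80% of TPM in WT TAC and 11.7% to 15.4% in WT sham hearts. The part of any of these in the changes was not tested beyond the adjustment.

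**Figure D3:**
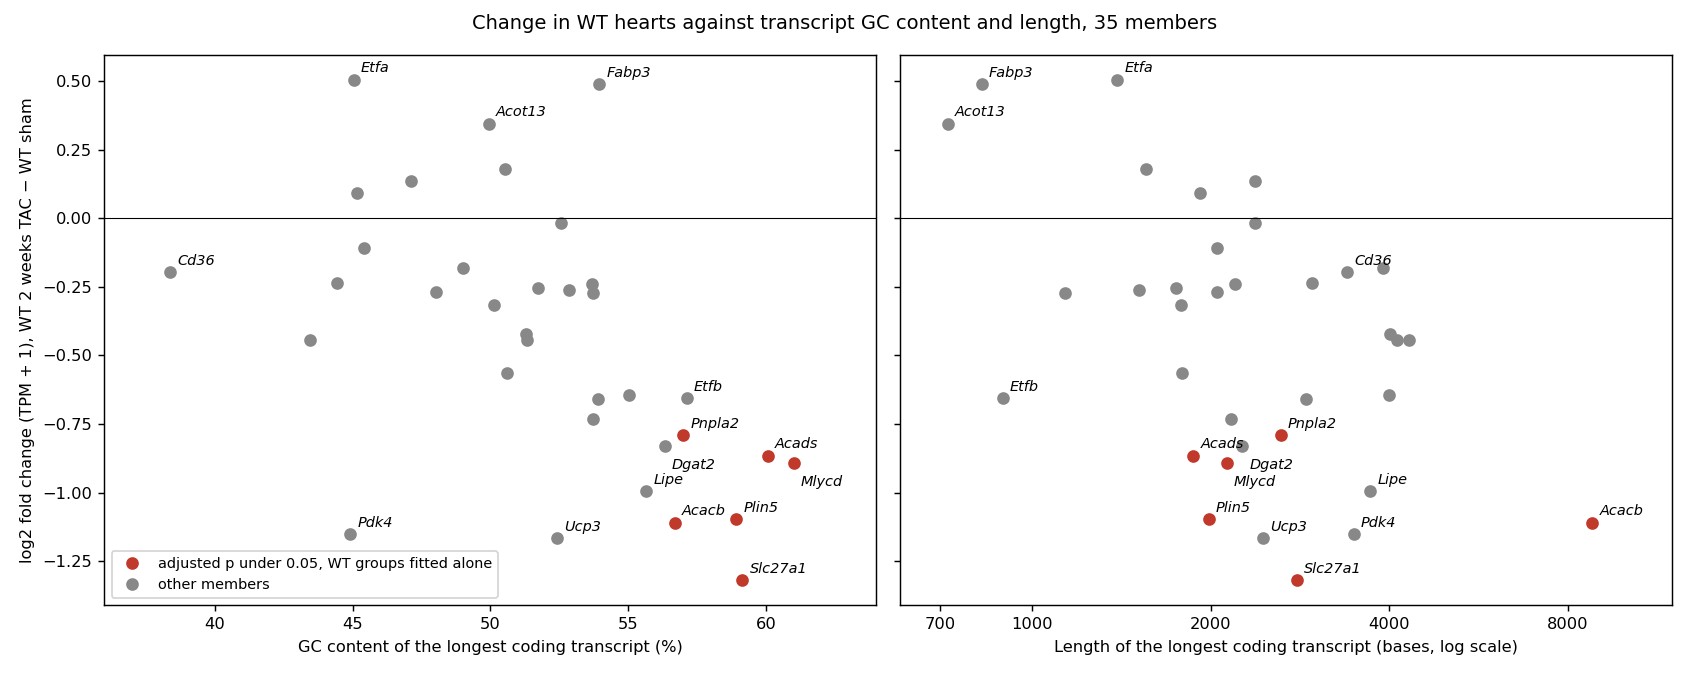
Log2 fold change (TPM + 1) of the 35 members between WT hearts at 2 weeks TAC and WT sham hearts against GC content (left) and length on a log axis (right) of the longest coding transcript; red points are the 6 members with adjusted p under 0.05 in the WT libraries alone. The red points sit between 56.7% and 61.0% GC and between -0.79 and -1.32.

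Ratios within a library do not depend on its total, and some of them separated the WT groups. The pairs were chosen after values were seen and carry no test. Etfa over Etfb, the 2 subunits of one flavoprotein, was 0.706 to 0.928 in WT TAC and 0.300 to 0.399 in WT sham hearts. Acads over Acadl was 0.0327 to 0.0429 in WT TAC and 0.0654 to 0.0832 in WT sham hearts, and Slc27a1 over Cd36 was 0.0382 to 0.0551 in WT TAC and 0.0942 to 0.113 in WT sham hearts. In each of these chosen pairs the member that was relatively lower after TAC is the richer in GC: Etfb at 57.1% and Etfa at 45.0%, Acads at 60.1% and Acadl at 45.1%, Slc27a1 at 59.1% and Cd36 at 38.4%. The part of GC content in these ratios was not tested. Cpt1b over Cpt1a, Hadha over Hadhb, Acot13 over Acot2, Eci1 over Eci2 and Ucp2 over Ucp3 overlapped between the WT groups. Mlycd over Acacb, whose GC contents are 61.0% and 56.7%, stayed at 0.314 to 0.522 over all 22 libraries.

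**Figure D4:**
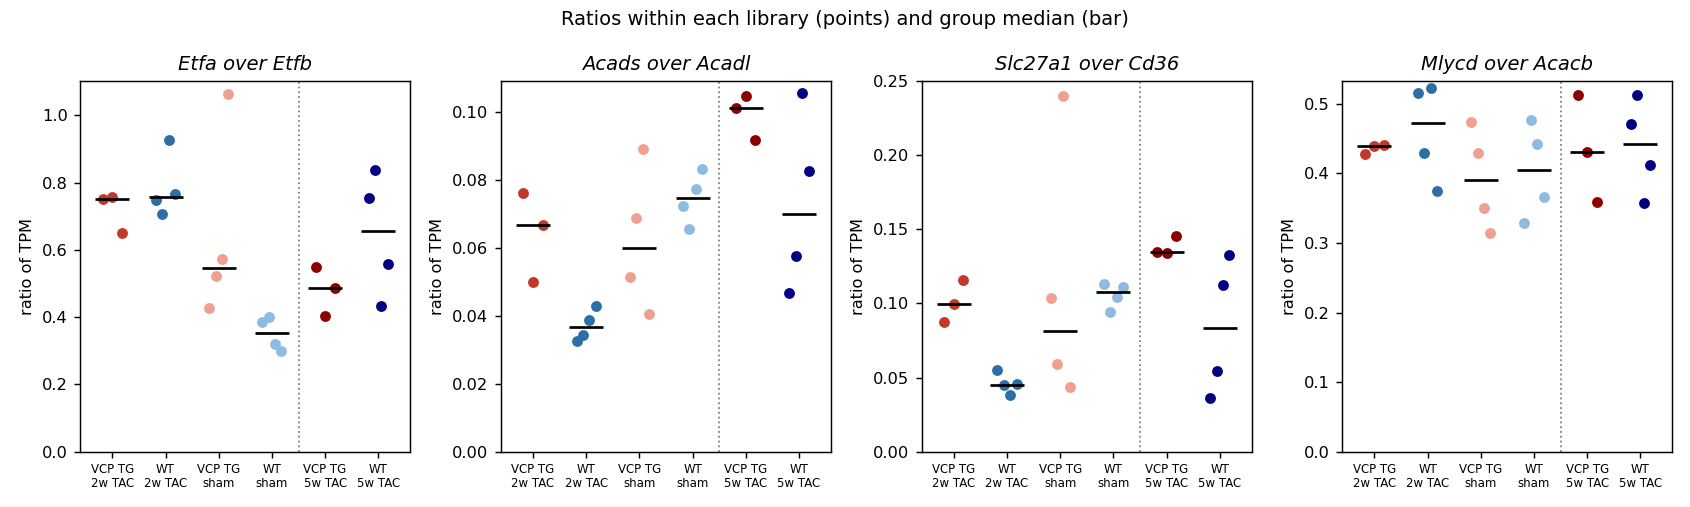
TPM of one member over another in each library (points) with the group median (bar). Etfa over Etfb is higher, and Acads over Acadl and Slc27a1 over Cd36 are lower, in every WT heart at 2 weeks TAC than in every WT sham heart, while Mlycd over Acacb overlaps between them.

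In VCP TG hearts the same operation gave no called change. The median log2 fold change of the members between TAC and sham was 0.08, against 0.02 over all genes, 11 members and 47.6% of all genes were below 0, and 0 of 35 passed the test (limma; background 0.772% of 15540 genes). No member reached an unadjusted p under 0.05, where 8.77% of all genes did. Ucp3 was the 1 member whose groups did not overlap, higher in TAC (3.35% of all genes): 9.24, 8.59 and 12.1 TPM in VCP TG TAC hearts, against 7.31, 6.35, 8.27 and 1.40 TPM in VCP TG sham hearts. Its log2 fold change was 0.84 ± 0.42 (limma adjusted p = 0.630). On values rescaled to nuclear protein-coding genes its groups overlapped, at 17.7, 22.4 and 28.4 in VCP TG TAC and 17.6, 17.5, 18.9 and 5.93 in VCP TG sham hearts, and no member was higher without overlap (1.89% of genes). Slc27a1 had 16.4, 17.4 and 25.6 TPM in VCP TG TAC hearts and 30.1, 15.3, 28.6 and 5.25 TPM in VCP TG sham hearts, whose values enclosed the TAC ones.

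The next members by unadjusted p were Cpt1a (0.54 ± 0.33), Slc25a20 (0.46 ± 0.30), Dgat2 (0.63 ± 0.48), Fabp3 (0.36 ± 0.38), Acot2 (0.27 ± 0.31), Lipe (0.29 ± 0.39) and Pnpla2 (0.21 ± 0.29), all with limma adjusted p of 0.879 or more. The 95% intervals were wide against these changes: that for Lipe ran from -0.52 to 1.09 and that for Pnpla2 from -0.40 to 0.82. Rescaling to nuclear protein-coding genes turned the median of the members to -0.22 and that of all genes to -0.22, with 28 of 35 members below 0 in place of 11. Among the members named here, rescaling brought Cpt1a to 0.29, Slc25a20 to 0.16, Dgat2 to 0.33, Fabp3 to 0.05 and Lipe to 0.06. The fit without the atrial-rich libraries keeps only replicate 3 of VCP TG 2 weeks TAC. There the members' median was -0.21, against -0.11 over all genes. Slc25a20 was at 0.24, Dgat2 at 0.24, Fabp3 at -0.10 and Pnpla2 at -0.0045. Without VCP TG sham replicate 1, whose Vcp went against its label, the median was 0.35, against 0.09 over all genes, with Dgat2 at 1.00, Fabp3 at 0.55, Acot2 at 0.41, Lipe at 0.45 and Pnpla2 at 0.41. The directions of Fabp3, Acot2, Pnpla2 and Lipe turned under at least 1 alternative.

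Whether TAC moved these genes differently in the 2 genotypes was tested as the difference of the 2 responses, which uses the same libraries as both of them. That difference was above 0 for 29 of 35 members (29.4% of all genes were below 0), with a median of 0.50, against 0.22 over all genes. No member passed (0 of 35, limma; background 0.00644% of 15540 genes), so a difference between the genotypes was not established for any of them. At an unadjusted p under 0.05 there were 8 members, all higher in VCP TG, where 4.04% of all genes were. They were Ucp3 (2.01 ± 0.57), Slc27a1 (1.54 ± 0.54), Cpt1a (0.98 ± 0.46), Acacb (1.04 ± 0.49) and all 4 genes of triglyceride storage and lipolysis, Plin5 (1.30 ± 0.51), Pnpla2 (1.00 ± 0.40), Lipe (1.28 ± 0.53) and Dgat2 (1.46 ± 0.65). Each of the 8 had a limma adjusted p of 0.872. By group, Dgat2, which makes triglyceride, averaged 55.5 ± 16.1 TPM in VCP TG TAC, 39.7 ± 19.6 in WT TAC, 41.5 ± 27.2 in VCP TG sham and 65.8 ± 15.2 TPM in WT sham hearts (SD). Rescaling to nuclear protein-coding genes brought the median to 0.18, against -0.01 over all genes, with 21 of 35 above 0; Pnpla2 was then at 0.66. Without the atrial-rich libraries, which leaves only replicate 3 of VCP TG 2 weeks TAC, the median was 0.27, against 0.16 over all genes. Dgat2 was then at 0.74, Plin5 at 0.84 and Acacb at 0.63, while Ucp3 stood at 1.89, Slc27a1 at 1.52, Cpt1a at 1.00, Lipe at 1.20 and Pnpla2 at 0.79. Without the libraries with Vcp against the label the 8 ran from 1.08 (Acacb) to 2.14 (Ucp3).

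**Figure D5:**
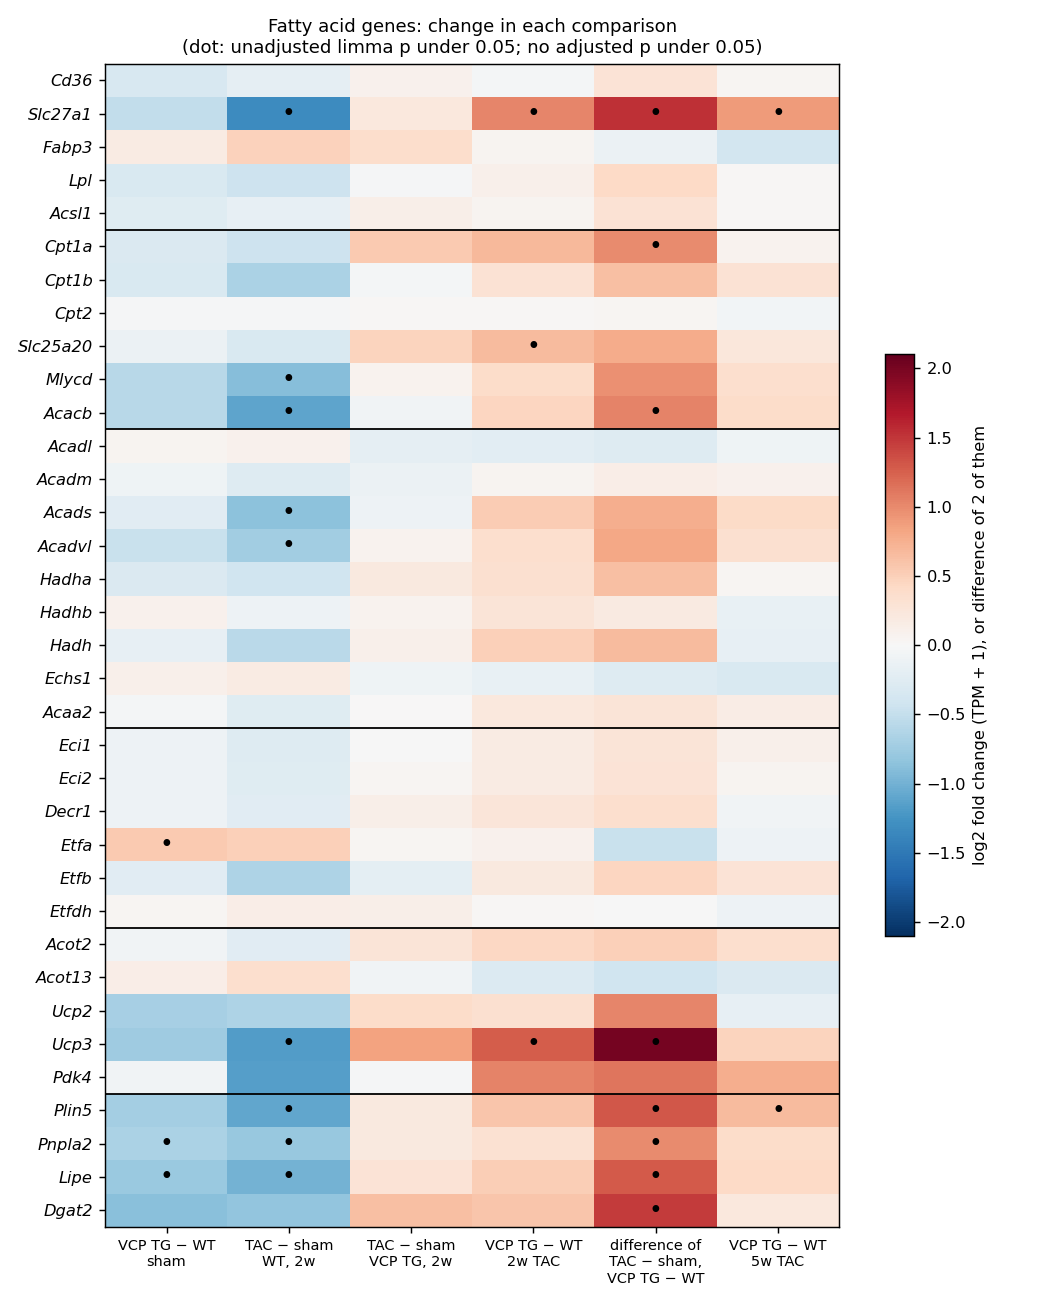
Log2 fold change (TPM + 1) of each member (rows, by role) in the 6 comparisons (columns), red for higher and blue for lower in the group named first; dots mark an unadjusted limma p under 0.05. In WT hearts 29 of 35 members are below 0 after TAC and the difference of the TAC responses is above 0 for 29 of 35, with the 4 triglyceride genes at the bottom all dotted in that column.

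Under TAC at 2 weeks, VCP TG hearts had higher levels than WT hearts for 31 of 35 members on TPM as deposited (26.8% of all genes were lower), with a median log2 fold change of 0.30, against 0.16 over all genes. Of the 35 members 0 passed in the fit of the table (limma; background 0.0901%), and 3 had an unadjusted p under 0.05, all higher, against 9.24% of all genes. With the 7 TAC libraries fitted alone, Ucp3 rose, where 0.0565% of 14162 genes were called. Ucp3 had 9.24, 8.59 and 12.1 TPM in VCP TG TAC hearts, against 3.32, 4.00, 3.59 and 3.18 TPM in WT TAC hearts, so the lowest VCP TG heart stood above the highest WT heart. The log2 fold change was 1.27 ± 0.14 (SE; limma adjusted p = 0.0301 alone and 0.220 in the table). All 8 genes called were higher, but after rescaling to nuclear protein-coding genes 56 were higher and 70 lower, Ucp3 still among the higher ones (1.03, limma adjusted p = 0.0482). The call held in 6 of 16 alternatives. Leaving out WT TAC replicate 1 and leaving out the library whose Vcp went against its label are the same fit among these. The call held there (1.25, limma adjusted p = 0.0358). It was lost without VCP TG TAC replicate 1 or 3 or without WT TAC replicate 2, 3 or 4. Without the 3 atrial-rich libraries only VCP TG TAC replicate 3 remained. That fit cannot decide the call, so the change alone is given (1.52).

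The 250 bases before the RefSeq start of Ucp3 are chr7:100472741-100472990 on the plus strand of GRCm38.p6. They are shown because Ucp3 was the member that passed in this comparison with the TAC libraries fitted alone. They lie in an intron of the antisense gene Gm10603 in GENCODE M21. Capitals mark AGGTCA, the core element bound by PPAR and other nuclear receptors, which begins 149 and 44 bases before the start.
Ucp3 upstream: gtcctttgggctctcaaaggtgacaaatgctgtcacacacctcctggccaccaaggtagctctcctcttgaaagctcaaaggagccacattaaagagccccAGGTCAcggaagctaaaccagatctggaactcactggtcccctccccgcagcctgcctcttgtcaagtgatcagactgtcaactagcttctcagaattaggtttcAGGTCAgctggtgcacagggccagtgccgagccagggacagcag
AGGTCA, on either strand, was found in the 250 bases before the start in 7 of 34 RefSeq promoters of the 29 members that have one there, in 7 genes (Acadm, Acadvl, Cd36, Cpt1a, Echs1, Plin5 and Ucp3), and in 14.0% of all 32851 promoters. Over the window of 250 bases before to 50 after the start, the estrogen-related receptor element TNAAGGTCA, which contains it, and the direct repeat of AGGTCA spaced by 1 base were in 0 of 34 member promoters, against 1.28% and 0.0396% of all promoters. Not listed there were Lpl, Cpt1b, Acaa2, Decr1, Acot13 and Dgat2. These are matches of letters, not sites shown to be bound.

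Slc27a1 was the next by unadjusted p, with 16.4, 17.4 and 25.6 TPM in VCP TG TAC hearts, against 8.27, 10.1, 8.67 and 9.34 TPM in WT TAC hearts, without overlap. Its log2 fold change of 1.02 ± 0.16 had a limma adjusted p of 0.0533 in the TAC libraries alone and did not pass. In the carnitine shuttle, Slc25a20 had 47.2, 34.2 and 46.9 TPM in VCP TG TAC and 24.1, 31.0, 23.6 and 27.2 TPM in WT TAC hearts, and Cpt1a had 11.0, 11.7 and 14.1 TPM in VCP TG TAC and 9.98, 6.51, 6.26 and 6.59 TPM in WT TAC hearts. Neither pair of groups overlapped on TPM as deposited, and their log2 fold changes were 0.66 ± 0.15 and 0.68 ± 0.17 (limma adjusted p = 0.0636 and 0.0725 alone). Rescaled to nuclear protein-coding genes, the groups of both overlapped and the changes were 0.28 for Slc25a20 and 0.35 for Cpt1a. Hadh (0.49 ± 0.30), Acads (0.53 ± 0.30), Plin5 (0.58 ± 0.37) and Pdk4 (1.04 ± 0.65) followed, at 0.11, 0.16, 0.23 and 0.65 after rescaling. Hadh was at 0.77 without the atrial-rich libraries, where only replicate 3 of VCP TG TAC remained. Pdk4, at 177, 158 and 185 TPM in VCP TG TAC and 160.5, 64.3, 79.0 and 59.2 TPM in WT TAC hearts, had 3 WT values far below and 1 within the VCP TG range; that one is the library labelled WT 2 weeks TAC replicate 1.

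The groups did not overlap for 7 members that were higher in VCP TG, namely Slc27a1, Cpt1a, Slc25a20, Mlycd, Hadh, Ucp3 and Lipe, where 19% of all genes were, and for 1 that was lower, the thioesterase Acot13, where 2.78% were. Acot13 had 308, 325 and 343 TPM in VCP TG TAC and 347, 473, 397 and 377 TPM in WT TAC hearts. On values rescaled to nuclear protein-coding genes only Slc27a1 and Ucp3 were higher without overlap (4.88% of genes), and Acadl and Acot13 lower (19.5%). On that scale the members' median was -0.09 and that of all genes -0.13, with 13 of 35 above 0, so the direction of many members here depends on the scaling. The median of the members was 0.41 without the atrial-rich libraries and 0.19 without the library with Vcp against its label, against 0.21 and 0.19 over all genes. The first of these keeps only replicate 3 of VCP TG TAC. The mean level of the receptor genes was 0.311 to 0.842 TPM in VCP TG TAC and 0.107 to 0.200 TPM in WT TAC hearts. Its part in these values was not tested.

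Without pressure load, no member passed the test between the genotypes. In the VCP TG sham hearts 28 of 35 members, and 51.6% of all genes, had a log2 fold change below 0 relative to WT sham hearts, with a median of -0.24, against -0.01 over all genes. None passed (0 of 35, limma; background 0%), and 3 had an unadjusted p under 0.05, against 3.96% of all genes: the lipases Pnpla2 (-0.67 ± 0.27) and Lipe (-0.77 ± 0.36), which were lower, and Etfa (0.55 ± 0.26), which was higher. The other triglyceride genes, Plin5 (-0.72 ± 0.35) and Dgat2 (-0.88 ± 0.44), and then Ucp3 (-0.74 ± 0.39), Acacb (-0.58 ± 0.33) and Mlycd (-0.58 ± 0.37) came next. Each had a limma adjusted p of 1, and no member's groups stood apart, where 1.04% of all genes did. After rescaling to nuclear protein-coding genes Acacb was lower without overlap (2.42% of genes).

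Pnpla2 had 240.3, 165, 167 and 90.6 TPM in VCP TG sham hearts, against 185, 263, 299 and 269 TPM in WT sham hearts. Lipe had 7.90, 7.24, 6.95 and 1.73 TPM in VCP TG sham hearts, against 5.23, 8.87, 18.0 and 10.5 TPM in WT sham hearts. The lowest value of both belongs to VCP TG sham replicate 4, and the groups overlap. Without the atrial-rich replicates 3 and 4 the members' median was 0.25, against 0.07 over all genes, and the named differences below 0 were smaller: Pnpla2 was at -0.33, Lipe at -0.33, Ucp3 at -0.37, Plin5 at -0.15, Acacb at -0.10, Dgat2 at -0.05 and Mlycd above 0 at 0.07; Etfa was at 0.82. Without VCP TG sham replicate 1, whose Vcp went against its label, the median was -0.43.

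At 5 weeks after TAC, the members had a median log2 fold change between VCP TG and WT hearts of 0.09, against 0.03 over all genes, and 24 of 35 above 0 (45.7% of all genes were below 0). No member passed (0 of 35, limma; background 0.00715% of 13986 genes); 2 had an unadjusted p under 0.05, both higher in VCP TG, against 2.85% of all genes. Slc27a1 had 23.3, 21.8 and 24.3 TPM in VCP TG hearts, against 8.62, 8.95, 15.4 and 16.8 TPM in WT hearts, and Plin5 had 17.6, 18.3 and 22.2 TPM in VCP TG hearts, against 11.8, 10.1, 16.8 and 9.45 TPM in WT hearts. Every VCP TG heart lay above every WT heart for both genes on TPM as deposited, but not on values rescaled to nuclear protein-coding genes. The log2 fold changes were 0.90 ± 0.25 and 0.67 ± 0.22, each with a limma adjusted p of 0.904. Without the libraries whose Vcp went against the label they were 0.84 and 0.72, with only VCP TG replicates 1 and 2 and WT replicates 1 and 4 left. Without the atrial-rich library they were 1.01 and 0.83.

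Acads (0.40 ± 0.20), Mlycd (0.36 ± 0.18), Acot2 (0.35 ± 0.18), Acadvl (0.34 ± 0.19), Pnpla2 (0.39 ± 0.21) and Lipe (0.42 ± 0.24) followed by unadjusted p. Without the libraries whose Vcp went against the label, so with the same few libraries left, Acads was at 0.62 and Acot2 at 0.17. Acadvl was at 0.22 after rescaling. The groups stood apart for 7 members, all higher in VCP TG, where 3.4% of all genes did: Slc27a1, Slc25a20, Mlycd, Acacb, Acadvl, Acot2 and Plin5. After rescaling to nuclear protein-coding genes 0 members stood apart in that direction (1.18% of genes). Slc25a20 separated narrowly, at 29.7 to 40.9 TPM in VCP TG and 25.6 to 29.6 TPM in WT hearts, as did Acacb at 33.7 to 38.6 TPM in VCP TG and 19.1 to 33.6 TPM in WT hearts. Ucp3 had been called at 2 weeks with the TAC libraries fitted alone, not in the fit of the whole table. At 5 weeks it was at 9.40, 9.07 and 11.5 TPM in VCP TG and 2.89, 4.94, 7.59 and 18.7 TPM in WT hearts, with a WT heart at each end. After rescaling to nuclear protein-coding genes the median was -0.03, against -0.07 over all genes. It was 0.05 without the atrial-rich library and -0.04 without the libraries with Vcp against the label, against 0.03 and 0.12 over all genes.

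The wider pathway was read from 64 further genes of fatty acid handling and its control, all in the files and 61 of them tested. None was called in the fits of whole tables (limma, 0 of 61 in each comparison, with the backgrounds above). Calls with groups fitted alone were not counted for these genes. In WT hearts after TAC, 49 of 61 had a log2 fold change below 0, against 64.2% of all genes. Of the 61, 9 were lower with an unadjusted limma p under 0.05 (8.47% of all genes). The groups did not overlap for 14 that were lower (13.7% of all genes). In the difference of the TAC response 50 of 61 were above 0, where 29.4% of all genes were below 0. There 6 had an unadjusted limma p under 0.05, all higher in VCP TG (4.04% of all genes). The smallest p in WT hearts belonged to Plin4, another lipid droplet coat gene, at 19.7 ± 4.66 TPM in WT TAC and 58.2 ± 25.6 TPM in WT sham hearts (SD, n = 4 each; -1.45 ± 0.40, limma adjusted p = 0.323). In the difference of the responses the smallest p belonged to Plin4 (1.77 ± 0.59) and Ppargc1a, the PGC-1alpha coactivator (1.55 ± 0.55), both with a limma adjusted p of 0.872.

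Angptl4, a PPAR target that inhibits lipoprotein lipase, was at 6.85 ± 1.25 TPM in VCP TG TAC hearts (n = 3), against 1.86 ± 0.980 TPM in WT TAC and 1.90 ± 1.54 TPM in VCP TG sham hearts (n = 4 each), with limma adjusted p = 0.256 and 0.221. Acad9, an assembly factor of complex I related to the dehydrogenases, was at 16.9 ± 5.49 TPM in VCP TG TAC hearts, against 8.22 ± 0.875 TPM in WT TAC and 9.61 ± 4.73 TPM in VCP TG sham hearts. In sham hearts Pparg, an adipogenic nuclear receptor (-0.69 ± 0.23), and Dbi, an acyl-CoA binding protein (0.63 ± 0.25), had the smallest p between the genotypes, and at 5 weeks the carnitine transporter Slc22a5 had it (0.62 ± 0.17). None of these passed over all genes in the fits of whole tables.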

How the data were processed

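Left ventricular RNA of 22 libraries in 6 groups was measured by RNA sequencing, with Qiagen miRNeasy extraction and Illumina TruSeq Stranded mRNA libraries per the labels' protocols. The authors deposited TPM per Ensembl gene in 2 tables, with 1 column per library. The submitters' processing notes list Trimmomatic 0.35, kallisto 0.43.1, STAR 2.5.4b and DESeq2 with build GRCm38 and no role or order, so what made the TPM was not stated. TPM carries no read depth, so no counting interval is given, and it moves with every other gene's share of a library.

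Groups and directions follow the labels. Members and lists were chosen with earlier results of these data known. Tests were two-sided and used limma 3.58.1 in R 4.3.3, fitting group means per table to log2(TPM + 1) with variance trend and robust moderation. Genes had to reach 1 TPM in 3 or more libraries, p-values were adjusted by Benjamini-Hochberg across every gene tested, and the threshold was 0.05. The scripts were tested on simulated data. Fold changes are given for members past the threshold, in the fit of the table or of the compared groups alone, and for up to 8 members with the smallest unadjusted p in a comparison; every member's level is given, and of the further pathway genes the 2 with the smallest p, of which 1 gene is counted but not reported here. Values in WT, VCP TG and TAC fits alone count as alternatives to the fit of the table. Further alternatives were a pseudocount of 0.1, no filter, rescaling to nuclear protein-coding genes, quantile normalization, limma without trend or robust moderation, a replicate block, each library left out, the atrial-rich libraries left out and the libraries with Vcp against the label left out. The adjustment for transcript length and GC content, the alternatives of the fits of groups alone, and the overlap of groups on rescaled values, were chosen after seeing the data. Transcript length, GC content and overlaps came from GENCODE M21, which held 29995 of the 30735 gene IDs, and promoter sequences from RefSeq's table for GRCm38.p6.

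Same-numbered VCP TG and WT sham libraries deviated together in 4 of 4 pairs (r = 0.107 to 0.260), and were treated as pairs in an alternative of that comparison: with the block 0 members passed, as without it. No 2 libraries held identical values; the highest correlation between libraries was 0.983 in the 2-week and 0.978 in the 5-week table.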

Additional observations from a re-analysis of the deposited data

Results flagged for a closer look

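Of 140 sets of 4 libraries (35 members in 4 groups), 7 held a library far from the other 3 by Dixon's criterion; chance alone flags about 1 in 20. WT 2 weeks TAC replicate 1 accounted for 3 of them: Cpt1a stood at 9.98 TPM there, against 6.26 to 6.59 TPM in the others, Ucp2 at 52.7 TPM, against 20.5 to 24.9 TPM, and Mlycd at 7.98 TPM, below the 10.7 to 11.1 TPM of the others. That library was also rich in atrial transcripts and had Vcp against its label. In WT 5 weeks TAC hearts, Cpt2 was 70.0 TPM in replicate 1, against 42.4 to 46.0 TPM in the others, and Hadh was 122 TPM in replicate 4, against 44.7 to 50.6 TPM. Fabp3 was 3182 TPM in WT sham replicate 2, against 1455 to 1666 TPM in the others. Lipe was 1.73 TPM in VCP TG sham replicate 4, the library with the largest mitochondrial share, against 6.95 to 7.90 TPM in the others.

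On TPM as deposited, Ucp3 lay higher in every VCP TG TAC heart than in every VCP TG sham heart and lower in every WT TAC heart than in every WT sham heart, the 1 member with this pattern. On values rescaled to nuclear protein-coding genes the VCP TG groups overlapped. Neither response passed over all genes (limma adjusted p = 0.630 in VCP TG and 0.331 in WT hearts in the fit of the table, 0.0573 in the WT libraries alone). The difference of the responses was 2.01 on the log2 scale, and its test did not pass either (limma adjusted p = 0.872).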

How the results depend on the processing

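With each table fitted whole, 0 members passed outside the fit without the atrial-rich libraries. There only replicate 3 remained in VCP TG 2 weeks TAC, so effect sizes alone are given for that fit. With the WT libraries fitted alone 6 members passed (7.03% of all genes). Between VCP TG and WT hearts at 2 weeks TAC, with those groups fitted alone, 1 passed (0.0565%). For the WT libraries alone, the count was 1 with no filter (0.549% of all genes), 10 after rescaling (11.0%) and 0 with the adjustment for length and GC content (0.008%). It was 2 without the atrial-rich library (3.14%), which is also the one with Vcp against its label. With single libraries left out it ran from 1 to 10, and the share of all genes from 0.363% to 15.9%. For the TAC libraries alone the count was 0 with no filter (0.0171% of all genes), 0 with quantile normalization (0.0282%) and 0 with the adjustment (0.0157%). It was 3 without the library with Vcp against its label (0.46%), and 0 to 3 with single libraries left out (0% to 5.64%). The cause of these changes in count was not tested. With the replicate block, 7 members passed in the WT libraries alone (4.81% of all genes), where Pnpla2 missed (limma adjusted p = 0.0507) and Ucp3 and Lipe passed. In the TAC libraries alone 0 passed (0.0071%). The replicate numbers pair no libraries by the check made (r = -0.302 to 0.209 over all groups other than sham with sham), and no other count moved. Directions turned for Mlycd between the sham groups without the atrial-rich libraries (0.0739), and in VCP TG hearts after TAC for Acot2 (-0.0432) and Pnpla2 (-0.11) after rescaling, for Fabp3 with quantile normalization (-0.0183), and for Fabp3 (-0.0962) and Pnpla2 (-0.0045) without the atrial-rich libraries. With single libraries left out, those changes ran over -0.037 to 0.60 for Fabp3, -0.0549 to 0.41 for Pnpla2 and -0.12 to 0.45 for Lipe. Of the single-gene values under alternatives, 922 kept direction and side of the threshold, 57 lost their call, 10 gained one and 9 turned; of the members' medians 140 stayed within the spread between libraries and 3 did not. Depth is unknown, so small differences of low members such as Ucp3 and Lipe carry an unmeasured counting error.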
